A study of Mus musculus with 12 samples.

Results

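Expression of the enzymes that break down ethanol was examined in the neonatal mouse cortex, in 10 genes chosen by name out of the 24452 gene symbols in the count tables. Of these, Adh1, Adh5, Adh7 and Cyp2e1 encode enzymes that can oxidise ethanol to acetaldehyde, Aldh2 and Aldh1b1 encode mitochondrial acetaldehyde dehydrogenases, Aldh3a2, Aldh9a1 and Aldh7a1 encode dehydrogenases of other aldehydes, and Acss2 encodes the enzyme that turns acetate into acetyl-CoA. The counts of the 13 RefSeq transcripts of these genes were summed per symbol, and 8 of the 10 genes had enough counts to be tested. Adh7 and Cyp2e1 did not.

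The libraries were made from somatosensory cortex of male C57BL/6 pups on postnatal day 7, in 4 groups of 3 libraries each. WT saline and WT ethanol pups carried intact Trp53, the gene for the tumour suppressor p53, and KO saline and KO ethanol pups were p53 knockouts carrying the Trp53tm1Tyj allele, a germline disruption that is present in every tissue. Ethanol was injected intraperitoneally at 2.5 g/kg, 2 injections were given 2 h apart, and the brains were taken 8 h after the second, with saline given to the controls in the same way. Cortex was collected by laser microdissection in some animals and by hole punch in others, and the labels do not say which library came from which method. The labels give no litter or culture number, so p-values measure the spread between these libraries only.

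In the liver, ethanol is oxidised mainly by the class I alcohol dehydrogenase ADH1, and CYP2E1 takes part at high ethanol concentrations. The acetaldehyde formed is then oxidised to acetate in mitochondria, chiefly by ALDH2. The brain is known for low class I alcohol dehydrogenase, for class III alcohol dehydrogenase (ADH5, which mainly removes formaldehyde bound to glutathione and has little activity towards ethanol), and for the use of acetate that arrives in the blood, which ACSS2 activates in the cytosol and nucleus.

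Adh7, Adh1 and Adh5 lie on the plus strand of chromosome 3, with Adh6a, Adh6b and Adh4 between Adh1 and Adh5, in a stretch of 238 kb between bases 138217773 and 138455499 of the mouse genome build mm10. Adh5 is listed with 2 transcripts that start at different bases and end at the same one. NM_001288578 starts at base 138437200 and NM_007410 starts 5893 bases further downstream at base 138443093. The 100 bases before each of these starts are printed here, with those of Adh1 and Cyp2e1, because Adh5 was the most abundant of the 10 genes and Adh1 and Cyp2e1 were among the least abundant. The sequences are RefSeq's for GRCm38.p6, which is the same assembly as mm10, on the plus strand. The RefSeq starts used for Adh1 and Cyp2e1 lie 60 and 13 bases upstream of the starts of their counted transcripts, and both Adh5 starts are those of the counted ones. Capitals mark CG dinucleotides and the motif TATAAA.
Adh5, upstream start, chr3:138437100-138437199: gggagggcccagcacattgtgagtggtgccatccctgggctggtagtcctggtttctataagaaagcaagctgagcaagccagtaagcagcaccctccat
Adh5, downstream start, chr3:138442993-138443092: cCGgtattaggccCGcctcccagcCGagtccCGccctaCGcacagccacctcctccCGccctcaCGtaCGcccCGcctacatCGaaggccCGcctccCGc
Adh1, chr3:138277485-138277584: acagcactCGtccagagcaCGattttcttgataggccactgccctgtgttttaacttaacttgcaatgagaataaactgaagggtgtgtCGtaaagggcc
Cyp2e1, chr7:140763719-140763818: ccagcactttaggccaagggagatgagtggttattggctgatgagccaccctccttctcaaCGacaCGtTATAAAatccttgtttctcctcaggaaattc

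The stretch before the downstream Adh5 start held 12 CG dinucleotides and that before the upstream start held 0. Those of Adh1 and Cyp2e1 held 3 and 2. RefSeq windows were at hand for 8 of the 10 genes, with 9 start sites. Over the full 250 bases before the start, the number of CG dinucleotides was 21 at the downstream Adh5 start, 18 at Aldh3a2, 13 at Acss2, 8 at Aldh9a1, 5 at Adh1, 4 at Aldh1b1, 2 at Cyp2e1, 2 at the upstream Adh5 start and 1 at Adh7, and the median over all 32851 promoter windows was 6. TATAAA, searched on both strands, was present in the windows of Adh7, Cyp2e1 and the upstream Adh5 start, and in 12.4% of all windows. Its first base lay at -31 from the Cyp2e1 start and at -207 from the upstream Adh5 start, and no position is given for Adh7. GGGCGG, also searched on both strands, was present at the downstream Adh5 start, Aldh3a2, Acss2 and Aldh1b1, and in 32.7% of all windows. These matches describe the sequence and were not tested for function.

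Aldh2 lies on the minus strand of chromosome 5 (bases 121566027 to 121593824), Aldh1b1 on the plus strand of chromosome 4 (45799022 to 45804608), Aldh3a2 on the minus strand of chromosome 11 (61244752 to 61267186), Aldh9a1 on the plus strand of chromosome 1 (167349991 to 167368530), Aldh7a1 on chromosome 18 and Acss2 on the plus strand of chromosome 2 (155518043 to 155562743). Aldh1b1 is the most compact of these, with 2 exons.

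The total estimated count ranged from 719735 to 17066392 per library. The library labelled KO ethanol 1 was the shallowest, followed by WT saline 1 with 1953154, and these 2 are also the libraries whose names open with L rather than P. WT saline 2 stood apart in its mix of transcript lengths: genes under 1500 bases took 46.1% of its count, against 34.8% in the library labelled KO ethanol 1, 26.0% in WT saline 3, 22.1% in WT saline 1 and 14.2% to 20.9% in the other 8. Slc17a7, the vesicular glutamate transporter of cortical excitatory neurons, was detected. The summed Trp53 count was not lower in KO mice. A sum over the whole gene also takes in parts outside the disruption and does not check the labels. The transcript NM_001127233 took 48.3% to 70.6% of the Trp53 count in 5 KO libraries and 7.01% to 23.1% in the 6 WT libraries. In the library labelled KO ethanol 1, with 14 Trp53 counts, it took 7.01%, the same share to within 0.001 percentage points as in WT saline 1, WT saline 2 and WT ethanol 3, so this share did not check its label.

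Per unit of transcript length, Adh5 was the most abundant of the 10 genes in all 12 libraries (the plot of RPKM by gene). RPKM scales the reads of a transcript by its length and by the size of the library, and the deposited values had in addition been brought to nearly the same distribution in every library. Adh5 averaged 78.6 ± 32.0 RPKM (SD over 12 libraries), which was above 95.04% of genes with any RPKM. The next 6 genes lay close together: Aldh1b1 averaged 14.4 ± 5.87 RPKM, Aldh7a1 14.1 ± 3.9, Aldh3a2 12.5 ± 2.31, Aldh2 10.9 ± 3.54, Acss2 10.0 ± 2.11 and Aldh9a1 9.86 ± 2.31. Neighbours among these 6 did not separate, since the upper gene of each neighbouring pair exceeded the lower in 5 to 9 of 12 libraries. Every one of the 6 was above Adh1, which averaged 0.883 ± 0.861 RPKM, in all 12 libraries.

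**Figure D1:**
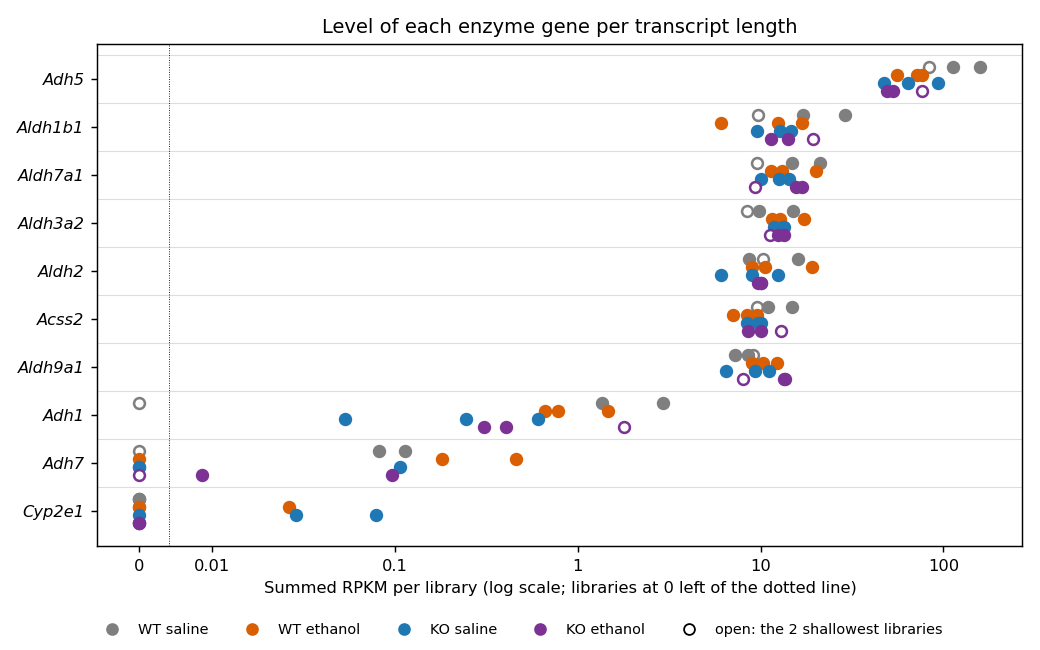
Summed RPKM of each of the 10 enzyme genes in the 12 libraries on a log axis, ordered by mean, with a point per library coloured by group and libraries at 0 placed left of the dotted line. Adh5 lies between 47.6 and 159 RPKM, above every other gene, while Adh7 and Cyp2e1 are at 0 in 5 and 9 libraries.

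Adh7, the class IV alcohol dehydrogenase of stomach and other epithelia, was barely detected. It had 45 counts in all 12 libraries together, 28 of them in WT ethanol 1, and it was at 0 in 5 libraries. WT ethanol 1 was also the library with the highest choroid plexus markers (Ttr, Kl, Folr1 and Clic6, all 4 detected), whose summed level was 4999 CPM there, the count scaled to a common library size. The summed choroid plexus level ranged from 3.60 to 119 in WT saline and from 22.1 to 4999 in WT ethanol. It ranged from 27.1 to 2252 in KO saline and from 0 to 2209 in KO ethanol. KO saline 1, at 2252 CPM, held 0 Adh7 counts, and KO ethanol 3, at 2209 CPM, held 1. The part of the choroid plexus in the Adh7 count was not tested. Cyp2e1, the ethanol-inducible cytochrome P450, had 5 counts in all, of which WT ethanol 1 and KO saline 1 held 2 each and KO saline 3 held 1. No Cyp2e1 count was found in the WT saline group, which allows a level of up to 0.144 CPM over its 3 libraries, or in the KO ethanol group, which allows up to 0.103 CPM. Neither gene gives a comparison between groups at this depth.

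Adh5 was lower in WT ethanol than in WT saline cortex. Its normalised level was 157, 562 and 272 CPM in WT saline 1, 2 and 3 and 87.6, 120 and 146 CPM in WT ethanol 1, 2 and 3. It was 103, 162 and 81.1 CPM in the KO saline libraries and 172, 85.9 and 81.1 CPM in the KO ethanol libraries, of which the highest is the library labelled KO ethanol 1. All 3 WT ethanol libraries were therefore below all 3 WT saline libraries, whereas the KO groups overlapped each other and WT ethanol. The mean of WT saline was 330 ± 209 CPM, that of WT ethanol 118 ± 29.4, that of KO saline 115 ± 42.1 and that of KO ethanol 113 ± 51.2 (SD, n = 3).

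The fitted Adh5 change with ethanol in WT mice was -1.48 on the log2 scale (SE 0.49), a level 2.80-fold lower, with an unadjusted p of 0.0084 and an adjusted p of 0.20 over the 14739 genes tested by edgeR's quasi-likelihood test. KO saline cortex was 2.86-fold lower than WT saline cortex (log2 change -1.52, SE 0.49, unadjusted p 0.0074, adjusted p 0.18). Both comparisons share the WT saline libraries. Ethanol versus saline in KO mice gave -0.05 (SE 0.48, 95% interval -0.99 to 0.89), and KO ethanol versus WT ethanol gave -0.08 (SE 0.48). The ethanol change in KO minus that in WT, the Genotype x Treatment interaction, was 1.43 (SE 0.68, unadjusted p 0.053, adjusted p 0.34), so the difference between the genotypes did not pass edgeR's test. DESeq2 gave 1.53 for it (unadjusted p 0.033). Over both genotypes the Treatment effect was -0.77 (SE 0.34, unadjusted p 0.040, adjusted p 0.69), and over both treatments the Genotype effect was -0.80 (SE 0.34, unadjusted p 0.034, adjusted p 0.62).

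WT saline 2 decided the first 2 calls: without it the change with ethanol in WT mice was -0.89 (unadjusted p 0.071) and the change in KO saline was -0.91 (unadjusted p 0.064). Without TMM factors, which rescale each library by its composition, the same 2 changes were also -0.89 and -0.92, while the median over all genes moved from 0.06 to 0.49 and from 0.04 to 0.49. On the deposited RPKM (as log2 of RPKM + 1, which lessens small values), they were -0.76 and -0.79. Adh5 was highest in the library with the largest share of short transcripts (the plot of Adh5 against the length mix), and a fit freed of the dependence on gene length and GC content in every library gave -1.12 (unadjusted p 0.011) and -1.08 (unadjusted p 0.014). Blood markers also moved with WT saline: the summed level of Hba-a1, Hba-a2, Hbb-bs, Hbb-bt and Alas2, all 5 detected, ranged from 337 to 1319 CPM in WT saline, from 50.3 to 145 in WT ethanol, from 35.9 to 99.3 in KO saline and from 29.0 to 765 in KO ethanol. The markers Gad1 and Gad2 of inhibitory neurons also stood apart in the WT groups: Gad1 ranged from 74.0 to 94.99 CPM in WT saline and from 141 to 172 in WT ethanol, and Gad2 from 21.2 to 60.2 and from 104 to 115. In KO saline they ranged from 106 to 114 and from 51.8 to 68.0 CPM. WT ethanol lay wholly above WT saline for 11.2% of all genes tested. The striatal markers Ppp1r1b, Drd1, Drd2 and Adora2a, all 4 detected, summed to 55.1 to 86.7 CPM in WT saline, 43.0 to 607 in WT ethanol, 36.3 to 112 in KO saline and 62.3 to 261 in KO ethanol. The part of these markers in the Adh5 difference was not tested. The Treatment call was also lost without any of WT ethanol 1, WT ethanol 2, KO saline 1, KO saline 2, KO ethanol 2 or KO ethanol 3 (-0.81 to -0.60, and -0.46 without WT saline 2). The Genotype call was lost without any of WT ethanol 2, WT ethanol 3, KO saline 1, KO saline 3, KO ethanol 2 or KO ethanol 3 (-0.78 to -0.69, and -0.49 without WT saline 2). In bulk tissue, fewer cells of a type and less RNA per cell cannot be told apart.

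**Figure D2:**
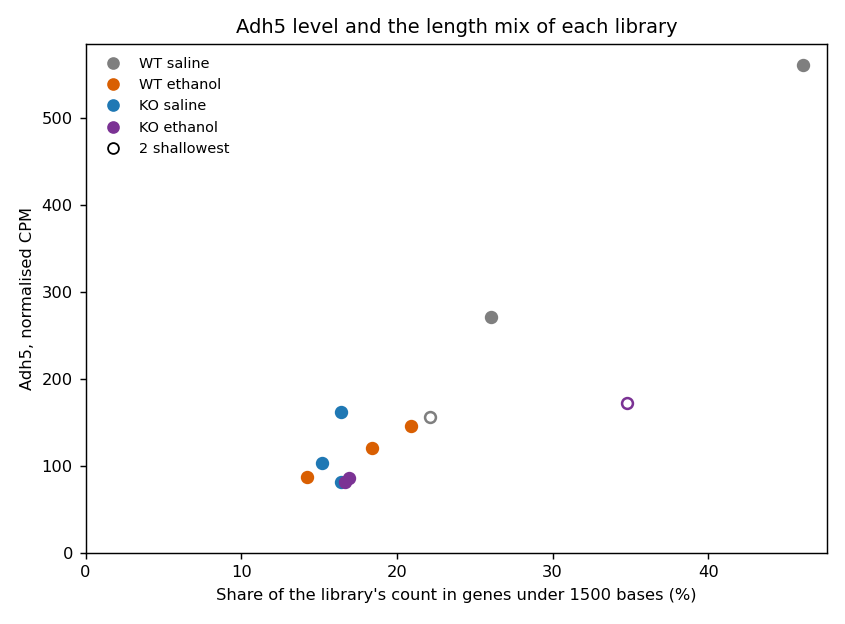
Normalised Adh5 level of each library (CPM, vertical axis) against the share of that library's count in genes under 1500 bases (%, horizontal axis), with a point per library coloured by group. WT saline 2, at 46.1% and 562 CPM, is highest on both axes, and the 8 libraries of other groups under 21% lie between 81.1 and 162 CPM.

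The genes whose levels across the 12 libraries were most like that of Adh5 were 2700060E02Rik (Pearson r = 0.992), Rpl15, a ribosomal protein gene (r = 0.982), and Gabarap, which encodes an autophagy protein (r = 0.979), among 7624 genes with at least 10 counts in every library. Their transcripts were of 1562, 1922 and 1351 bases, beside 1604 bases for Adh5, and the libraries share the differences in depth and length mix given above. 2700060E02Rik was at 708 CPM in WT saline 2 and between 93.4 and 331 CPM in the other 11 libraries. For Aldh1b1 the most alike were Imp4 (r = 0.889), Mapk3 (r = 0.877) and Poldip2 (r = 0.873), and for Aldh7a1 they were Pigq (r = 0.943), Tm7sf3 (r = 0.846) and Erlin2 (r = 0.823). These correlations are descriptions over 12 libraries.

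Adh1, the class I enzyme, was present at trace level. Its level was 0, 3.49 and 1.63 CPM in the WT saline libraries and 2.77, 1.23 and 1.02 CPM in the WT ethanol libraries. It was 0.09, 0.35 and 1.03 CPM in KO saline and 1.67, 0.79 and 0.63 CPM in KO ethanol. Every group overlapped every other, and the 150 counts behind these values ranged from 0 to 49 per library. The value of 1.67 CPM is a single count in the library labelled KO ethanol 1. The Genotype effect on Adh1 was -1.50 (SE 0.67, unadjusted p 0.040, adjusted p 0.62), with KO saline versus WT saline at -1.90 (SE 0.91, unadjusted p 0.056). Ethanol gave -0.13 (SE 0.86) in WT mice and 0.66 (SE 0.99) in KO mice. The Genotype effect missed the threshold when any of WT saline 2, WT saline 3, WT ethanol 1, KO saline 1, KO saline 2, KO ethanol 2 or KO ethanol 3 was left out (-1.55 to -1.12). Among the 12 libraries, Adh1 was highest in WT saline 2, where the fibroblast and meningeal markers Dcn, Col1a1, Col1a2, Lum and Igf2 (all 5 detected) summed to 1138 CPM. That sum ranged from 33.9 to 1138 over the WT saline libraries, from 107 to 431 over WT ethanol, from 39.8 to 127 over KO saline and from 63.5 to 131 over KO ethanol, and its part in the Adh1 values was not tested.

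Aldh2, the main mitochondrial acetaldehyde dehydrogenase, was not called by the reported edgeR fit in any of the 7 contrasts. It was at 46.3, 34.2 and 55.0 CPM in WT saline, 59.3, 35.3 and 35.4 CPM in WT ethanol, 42.7, 23.0 and 32.7 CPM in KO saline and 38.4, 36.3 and 35.5 CPM in KO ethanol. The groups overlapped in every pair. The change with ethanol was -0.06 in WT mice (SE 0.35, 95% interval -0.75 to 0.63) and 0.16 in KO mice (SE 0.36, 95% interval -0.54 to 0.86). KO saline versus WT saline gave -0.46 (SE 0.35, unadjusted p 0.21). Over the 9 settings other than leaving out a library, this change ranged from -0.92 to -0.04. In 2 of these settings its unadjusted p fell under 0.05, the lowest at 0.012 by the test of that setting. Of the 12 fits that left out a library, 0 brought it under 0.05.

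Aldh1b1, a mitochondrial relative of Aldh2 that also accepts acetaldehyde, varied more between libraries. It was at 26.2, 50.2 and 90.0 CPM in WT saline, 16.6, 42.3 and 32.8 CPM in WT ethanol, 32.8, 25.7 and 37.7 CPM in KO saline and 55.2, 35.5 and 29.2 CPM in KO ethanol. WT saline 3 was the highest library and WT ethanol 1 the lowest, and all groups overlapped. The change with ethanol in WT mice was -0.87 (SE 0.46, unadjusted p 0.080, adjusted p 0.32), and it was 0.28 (SE 0.47) in KO mice. The interaction was 1.15 (SE 0.66, unadjusted p 0.10). KO saline versus WT saline gave -0.80 (SE 0.46, unadjusted p 0.10). Without the 2 shallow libraries the WT ethanol change was -1.27 (unadjusted p 0.0083) and the KO saline change was -1.19 (unadjusted p 0.012). Without WT saline 3 these changes were -0.33 (unadjusted p 0.49) and -0.26 (unadjusted p 0.59), and with unscaled library sizes they were -0.42 (unadjusted p 0.39) and -0.31 (unadjusted p 0.52).

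Aldh3a2, the fatty aldehyde dehydrogenase, was steadiest in the KO groups. It was at 31.4, 34.9 and 58.6 CPM in WT saline, 58.7, 41.5 and 46.9 CPM in WT ethanol, 46.8, 49.5 and 42.9 CPM in KO saline and 40.1, 46.7 and 43.6 CPM in KO ethanol. Ethanol gave 0.23 (SE 0.32) in WT mice and -0.09 (SE 0.33) in KO mice. Aldh9a1, which oxidises aminoaldehydes, was at 30.3, 21.3 and 26.4 CPM in WT saline and 38.3, 28.8 and 33.4 CPM in WT ethanol. In KO mice it was at 30.1, 21.3 and 35.5 CPM after saline and 23.4, 41.5 and 42.1 CPM after ethanol. Its ethanol changes, 0.37 (SE 0.35) in WT and 0.34 (SE 0.35) in KO mice, were about the size of their errors, and the groups overlapped. Aldh7a1, an enzyme of lysine breakdown, was at 31.9, 51.1 and 74.3 CPM in WT saline, 67.3, 38.5 and 44.2 CPM in WT ethanol, 43.5, 34.7 and 48.8 CPM in KO saline and 26.7, 55.4 and 52.2 CPM in KO ethanol. Ethanol gave -0.08 (SE 0.39) in WT mice and 0.12 (SE 0.39) in KO mice.

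Acss2, the acetate-activating enzyme, was the second gene whose WT groups did not overlap. It was at 31.9, 35.3 and 51.3 CPM in WT saline and 30.6, 23.0 and 27.1 CPM in WT ethanol, with WT saline 1 and WT ethanol 1 nearest to each other. In KO mice it was at 27.5, 33.3 and 31.1 CPM after saline and 41.8, 32.1 and 27.5 CPM after ethanol, where the groups overlapped. The change with ethanol in WT mice was -0.56 (SE 0.33, unadjusted p 0.11, adjusted p 0.36) and did not pass the test. In KO mice it was 0.12 (SE 0.33). The interaction was 0.68 (SE 0.46, unadjusted p 0.17). Without the 2 shallow libraries the change in WT mice was -0.76 (unadjusted p 0.019), and with the length and GC trend removed it was -0.80 (unadjusted p 0.030). Without WT saline 3 it was -0.32 (unadjusted p 0.38), and with unscaled library sizes it was -0.12 (unadjusted p 0.75).

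**Figure D3:**
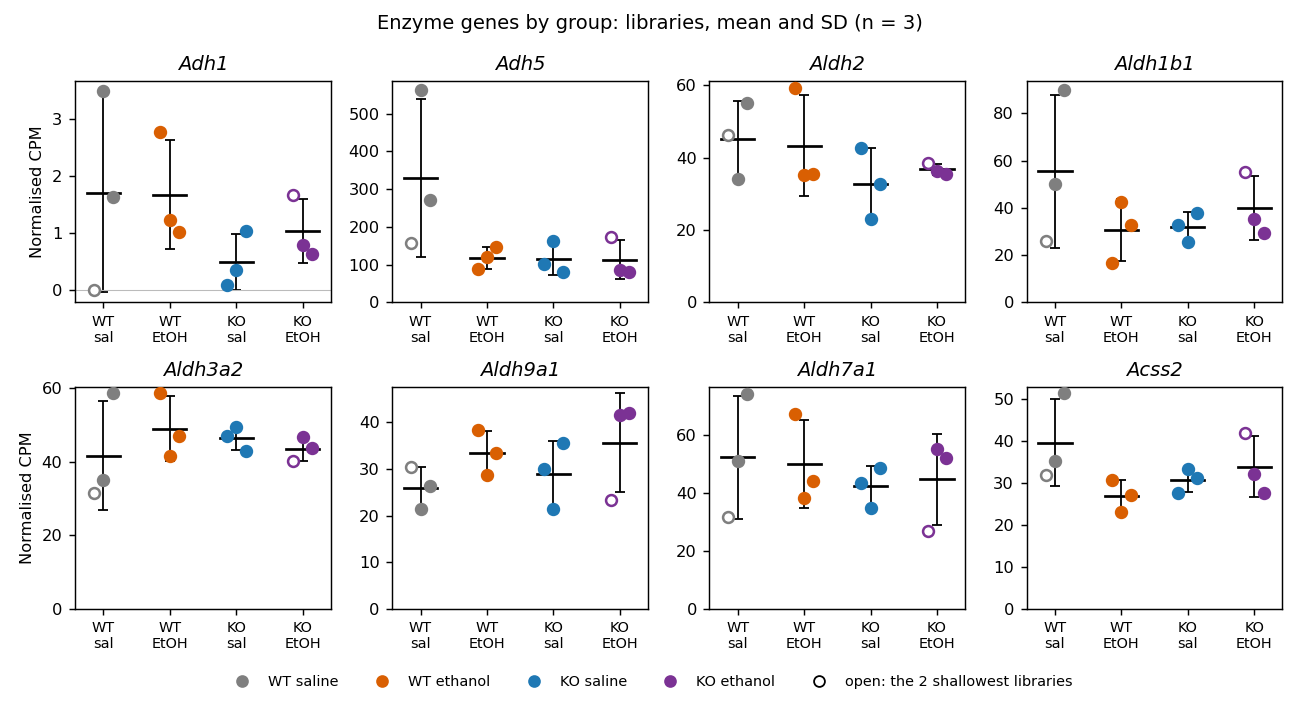
Normalised CPM of the 8 enzyme genes tested, by group, with a point per library, a bar at the mean and a line for the SD (n = 3), each panel with its own vertical axis from 0. Adh5 and Acss2 are the panels in which no WT ethanol library (orange) reaches a WT saline library (grey).

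At an unadjusted p under 0.05, 1 of the 8 genes tested (12.5%) was called for ethanol in WT mice, beside 18.3% of all genes tested. It was Adh5, and 8.36% of all genes were called lower there. No gene of the 8 was called for ethanol in KO mice, beside 3.15% of all genes. KO saline versus WT saline called Adh5 alone of the 8, beside 19.6% of all genes in either direction and 10.5% lower. KO ethanol versus WT ethanol called 0, beside 3.24%. The Treatment effect also called Adh5 alone, beside 7.09% in either direction and 2.47% lower. The Genotype effect called Adh1 and Adh5, both lower, beside 7.67% in either direction and 3.67% lower, and the interaction called 0, beside 15.2%. With 1 gene of 8 called for ethanol in WT mice and 1 for KO saline, these counts were near the share of genes in general. For 2 of the 8, Adh5 and Acss2, all WT ethanol libraries lay below all WT saline libraries, as they did for 8.30% of all genes. None of the 8 had an adjusted p under 0.05 by edgeR in any of the 7 contrasts, and the smallest was 0.18. DESeq2 gave Adh5 an adjusted p of 0.048 in KO saline versus WT saline and 0.064 for ethanol in WT mice, and no other of the 8 was under 0.05 by DESeq2 or by limma on log2 of RPKM + 1. Over all genes, edgeR's adjusted p was under 0.05 for 0.0746% with ethanol in WT mice and 0.0543% in KO saline versus WT saline. For the other 5 contrasts it was under 0.05 for 0.00%. The share of all genes under 0.05 by DESeq2 is not given here, so these shares do not stand beside its Adh5 values. At the adjusted level of 0.30 used by the study, 1 of the 8 was called for ethanol in WT mice, beside 22.5% of all genes, and 2 (Adh1 and Adh5) were called for KO saline versus WT saline, beside 25.8%.

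The median change of the 8 genes with ethanol was -0.10 in WT mice, beside 0.06 over all genes, and 0.14 in KO mice, beside 0.01. For KO saline versus WT saline the median was -0.42, beside 0.04 over all genes. With unscaled library sizes these 3 medians became 0.38, 0.15 and 0.02, beside 0.49, 0.03 and 0.49 over all genes, so their signs depended on the scaling in WT ethanol and in KO saline.

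**Figure D4:**
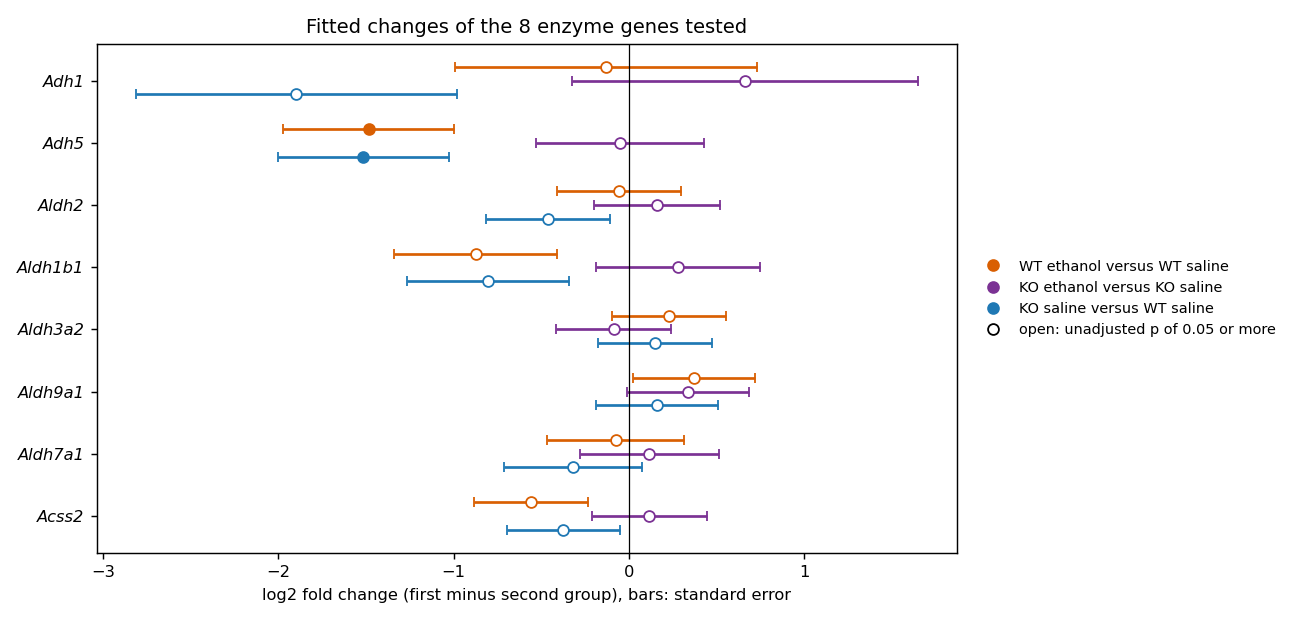
Fitted log2 changes with their standard errors for the 8 enzyme genes tested in 3 contrasts, WT ethanol versus WT saline (orange), KO ethanol versus KO saline (purple) and KO saline versus WT saline (blue), with filled points where the unadjusted p is under 0.05. Adh5 carries the filled points, at -1.48 in WT ethanol and -1.52 in KO saline.

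Of the 10 genes, 3 were listed with 2 transcripts each. The Aldh2 transcript NM_001308450, which has 11 exons and ends before the long last exon of the 13-exon NM_009656, took 46.3% of the Aldh2 count in WT ethanol 1 and between 16.0% and 35.1% in 8 other libraries. In WT saline 2 it took 2.54%, in the library labelled KO ethanol 1 it took 1.47%, and in WT saline 1 it was listed at 0 to within rounding. The Aldh7a1 transcript NM_001127338 took 18.5% to 37.6% in 9 libraries, and 4.06% in WT saline 1, WT saline 2 and the library labelled KO ethanol 1. The last 3 shares were equal to within 0.001 percentage points although the Aldh7a1 counts of those libraries were 62, 278 and 16. The upstream-start Adh5 transcript NM_001288578, whose promoter sequence above holds no CG in its last 100 bases, took 63.5% in WT saline 1 and in the library labelled KO ethanol 1, again equal to within 0.001 percentage points, and 37.5% to 47.2% in the other 10 libraries.

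Fitted as single transcripts, both Adh5 transcripts were lower in WT ethanol than in WT saline: NM_001288578 changed by -1.85 (SE 0.52, unadjusted p 0.0034) and NM_007410 by -1.26 (SE 0.52, unadjusted p 0.028), beside 18.2% of 21715 transcripts called. In KO saline versus WT saline, 19.1% of the transcripts were called. Both Adh5 transcripts were lower there, with -1.79 (SE 0.52, unadjusted p 0.0041) for NM_001288578 and -1.37 (SE 0.52, unadjusted p 0.019) for NM_007410. NM_009656 of Aldh2 gave -0.87 (SE 0.35, unadjusted p 0.028) and NM_001308450 gave 0.88 (SE 1.07, unadjusted p 0.42). Since equal shares recur in libraries of different depth, the division of counts between transcripts was the estimate of the authors' quantification in those libraries.

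**Figure D5:**
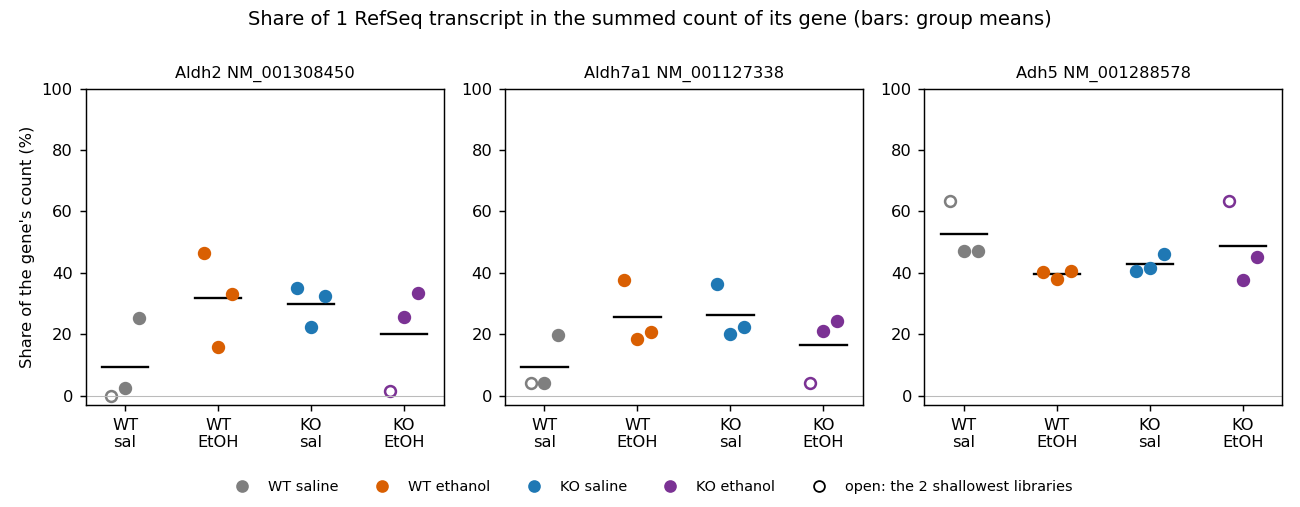
Share of the gene's summed count (%) taken by 1 of its 2 transcripts, for Aldh2, Aldh7a1 and Adh5, with a point per library by group and a bar at the group mean. The 2 shallow libraries (open points) and WT saline 2 lie lowest for Aldh2 and Aldh7a1, and the 2 shallow libraries lie highest for Adh5 at 63.5%.

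Around these 10 genes, 50 further genes of ethanol and acetate handling were listed, of which 49 were in the files and 40 could be tested. By edgeR at an unadjusted p under 0.05, ethanol in WT mice called 3 of the 40 (7.5%), all lower, beside 18.3% of all genes and 8.36% lower. Ethanol in KO mice called 1 (2.5%), lower, beside 3.15%, and KO saline versus WT saline called 2 (5%), 1 in each direction, beside 19.6%. None had an adjusted p under 0.05 in these 3 contrasts by edgeR, DESeq2 or limma on log2 of RPKM + 1. At an unadjusted p under 0.05, DESeq2 called 6, 1 and 8 of the 40, beside 21.4%, 3.97% and 22.8% of all genes, and limma called 2, 1 and 1, beside 11.9%, 3.97% and 12.5%.

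Of 8 further genes listed around alcohol oxidation, not all of which encode enzymes that oxidise alcohols, 4 were tested (Adhfe1, Akr1a1, Cat and Por). Adh4, Adh6a and Cyp1a2 were at 0 in all 12 libraries. Akr1a1, the aldehyde reductase AKR1A1, was the most abundant of them at 469 RPKM on average. Its level was 591, 2095 and 1674 CPM in WT saline, 418, 528 and 666 CPM in WT ethanol, 507, 654 and 465 CPM in KO saline and 1235, 436 and 458 CPM in KO ethanol. The highest values lay in WT saline 2, WT saline 3 and the library labelled KO ethanol 1, the 3 libraries with the largest share of short transcripts. The change with ethanol in WT mice was -1.44 (SE 0.54, unadjusted p 0.019, adjusted p 0.22) and that in KO saline was -1.42 (SE 0.54, unadjusted p 0.020, adjusted p 0.19). On log2 of RPKM + 1 they were -0.12 and 0.09, and neither passed the test. Without WT saline 2 the changes were -1.11 (unadjusted p 0.070) and -1.09 (unadjusted p 0.076), and leaving out WT ethanol 1, KO saline 1 or KO saline 3 also ended a call (-1.31, -1.40 and -1.36). Catalase (Cat), which also oxidises ethanol in brain, was not called by edgeR in any of the 7 contrasts, and its group means lay between 65.3 ± 5.77 CPM in KO saline and 83.4 ± 20.9 CPM in KO ethanol.

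Among 15 other aldehyde dehydrogenases, 14 were tested and none was called by edgeR for ethanol in either genotype. Aldh1a3, which makes retinoic acid, was called higher in KO saline than in WT saline. It was at 3.09, 0.92 and 0.30 CPM in WT saline and 10.0, 6.79 and 3.25 CPM in KO saline. The groups did not overlap, with KO saline wholly above WT saline, as for 12.9% of all genes tested. The change was 2.59 (SE 0.96, unadjusted p 0.017, adjusted p 0.19), and the Genotype effect was 1.56 (SE 0.64, unadjusted p 0.028, adjusted p 0.62). The first call ended without WT saline 3 (1.89) or KO saline 1 (2.14), and the second without any of 5 libraries (1.21 to 1.52). After ethanol it was at 4.59, 0.88 and 0.93 CPM in WT mice and 0, 3.55 and 4.12 CPM in KO mice. The 0 belongs to the library labelled KO ethanol 1, where 3 counts are 5.01 CPM.

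Of the 11 genes of acetate and acetyl-CoA handling, 9 were tested, 2 were lower with ethanol in WT mice and 1 was lower with ethanol in KO mice. Slc16a7, the monocarboxylate transporter MCT2 of neurons, was lower in both genotypes. It was at 17.0, 22.8 and 16.4 CPM in WT saline and 8.89, 5.45 and 12.4 CPM in WT ethanol. In KO mice it was at 16.7, 19.1 and 6.71 CPM after saline and 3.34, 6.63 and 4.06 CPM after ethanol, the first of these being 2 counts in the library labelled KO ethanol 1. The summed level of 6 neuron markers (Rbfox3, Slc17a7, Neurod6, Tbr1, Gad1 and Gad2, all detected) ranged from 1036 to 1374 CPM in WT saline, from 654 to 1302 in WT ethanol, from 1100 to 1246 in KO saline and from 884 to 1032 in KO ethanol, and its part in the Slc16a7 difference was not tested. Saline and ethanol libraries did not overlap in Slc16a7 in either genotype. Ethanol lay wholly below saline for 8.30% of all genes tested in WT mice and 6.87% in KO mice. For Slc16a7, KO saline 3 and KO ethanol 2 differed by less than 0.1 CPM. The change was -1.06 (SE 0.47, unadjusted p 0.041, adjusted p 0.25) in WT mice and -1.50 (SE 0.50, unadjusted p 0.0093, adjusted p 1.00) in KO mice. The Treatment effect was -1.28 (SE 0.34, unadjusted p 0.0022, adjusted p 0.52), and it stayed under an unadjusted p of 0.05 in all 12 fits that left out a library. Acat2, a cytosolic acetyl-CoA acetyltransferase, was at 111, 110 and 116 CPM in WT saline and 53.6, 64.3 and 68.4 CPM in WT ethanol. Its change was -0.85 (SE 0.37, unadjusted p 0.038, adjusted p 0.25). The groups did not overlap, with WT ethanol wholly below WT saline, as for 8.30% of all genes tested. On log2 of RPKM + 1 the Acat2 change was -0.48 (unadjusted p 0.12). The WT calls of both genes were lost without any of 4 libraries for Slc16a7 (-1.15 to -0.87) and any of 5 for Acat2 (-0.93 to -0.77). They were also lost with unscaled library sizes, at -0.59 (unadjusted p 0.24) for Slc16a7 and -0.42 (unadjusted p 0.24) for Acat2.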

How the data were processed

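Stranded RNA-Seq was performed by the study on 12 cortex libraries. The authors kept reads with a quality score of at least 30, aligned them with Bowtie2 (run by TopHat) to mm10, and estimated counts of RefSeq transcripts with Partek Flow. Tool versions and the counting and strand settings are not given in the sources used here. The deposited estimated counts per transcript hold fractions and are not scaled. The deposited RPKM values had nearly identical sorted values in all libraries, as quantile normalization gives.

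Groups were taken from the labels, and replicates were numbered by accession order as names only. Counts were summed per symbol, rounded, and fitted in edgeR 4.0.16 (R 4.3.3) with filterByExpr, TMM factors and quasi-likelihood tests of 7 contrasts on all 12 libraries, two-sided, with Benjamini-Hochberg adjustment over 14739 genes. Normalised CPM uses TMM-scaled library sizes. RPKM was summed per symbol for levels and for limma 3.58.1. DESeq2 1.42.0 and 8 other alternatives were run, besides 12 fits that each left out a library. Intervals are nominally at 95%, from a normal distribution and an SE taken back from the F-test, so they are narrower than that test implies. Like the floor of 3 counts, they cover counting error or library spread only. Lengths, GC content and exons came from GENCODE release M21. The fits were tested on simulated data. All 10 genes, the called genes of each pathway list (up to 3 by p in each contrast) and the 3 genes most alike were named by rule. The genes, lists and rules were chosen with earlier results of these data known.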

Additional observations from a re-analysis of the deposited data

Results flagged for a closer look

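The difference between the genotypes in the ethanol change, KO minus WT, passed an unadjusted p of 0.05 for 2 genes of the wider pathway lists. For Akr1a1 the difference was 1.82 (SE 0.76, unadjusted p 0.031, adjusted p 0.29), from -1.44 in WT mice and 0.39 in KO mice. For Mdh2, the mitochondrial malate dehydrogenase, it was 1.63 (SE 0.65, unadjusted p 0.024, adjusted p 0.28), from -0.93 in WT mice and 0.69 in KO mice. Mdh2 was at 439, 711 and 633 CPM in WT saline, 257, 358 and 319 CPM in WT ethanol, 280, 300 and 350 CPM in KO saline and 911, 279 and 321 CPM in KO ethanol. The value of 911 CPM belongs to the library labelled KO ethanol 1. By edgeR 2237 of 14739 genes (15.2%) passed the same threshold, and on log2 of RPKM + 1 neither gene did. Without the library labelled KO ethanol 1 the differences were 1.16 and 0.88, and neither passed.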

How the results depend on the processing

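The count of the enzyme genes at an unadjusted p under 0.05 was recomputed under each alternative. The 8 genes were tested in each, except that 10 were tested with at least 1 count in any library and 7 with at least 10 counts in every library. For ethanol in WT mice, 1 by the reported analysis, it was 0 with limma on log2(RPKM + 0.1), beside 10.3% of all genes, 3 without the 2 shallow libraries, beside 37.3%, and 2 with the length and GC trend removed, beside 16.5%. For KO saline versus WT saline, also 1, it was 3, 2 and 2 without the shallow libraries, with the trend removed and on single transcripts, beside 39.2%, 14.9% and 19.1%. The Treatment count of 1 became 0 without TMM, on either limma scale and with the trend removed, and 2 without the shallow libraries, beside 30.6%. The Genotype count of 2 became 0 under the same 4 settings, and 1 on single transcripts or with at least 10 counts in every library. Adh1 was not tested in the last of these. The interaction count of 0 became 1 with DESeq2 or with at least 1 count in any library, and 2 without the shallow libraries, beside 17.2%, 12.8% and 21.4%. With any 1 library omitted, the counts were 0 to 3 for ethanol in WT mice, 0 to 3 for KO saline, 0 to 1 for Treatment, 0 to 2 for Genotype and 0 to 2 for the interaction. The counts for ethanol in KO mice and for KO ethanol versus WT ethanol stayed at 0 in every alternative.

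Of the 37 single changes given, 13 changed sign under some alternative, and no changed sign came with a p under 0.05. For ethanol in WT mice, the unscaled libraries gave 0.54 for Adh1, 0.35 for Aldh2 and 0.40 for Aldh7a1. limma on log2(RPKM + 0.1) gave 0.42 for Adh1 and 0.12 for Aldh2, and log2(RPKM + 1) gave 0.11 for Aldh2. At least 10 counts in every library gave 0.11 for Aldh2 and 0.098 for Aldh7a1. Removing the length and GC trend gave 0.36 for Adh1 and -0.040 for Aldh3a2, and dropping the shallow libraries gave -0.010 for Aldh3a2. For ethanol in KO mice, Adh5 became 0.027 with DESeq2 and 0.00582 with the trend removed, which also gave 0.15 for Aldh3a2 and -0.011 for Aldh7a1, and dropping the shallow libraries gave -0.0066 for Aldh1b1 and -0.058 for Acss2. With the trend removed, Adh5 in KO ethanol versus WT ethanol became 0.049. Akr1a1 in KO saline became 0.086 on both limma scales, and its interaction became -0.059 on both. Leaving out 1 library gave ranges for ethanol in WT mice of -0.78 to 0.60 for Adh1, -0.37 to 0.12 for Aldh2 and -0.39 to 0.27 for Aldh7a1. In KO mice they were -0.47 to 0.27 for Adh5, -0.044 to 0.41 for Aldh2, -0.035 to 0.35 for Aldh7a1 and -0.039 to 0.28 for Acss2, and for Adh5 in KO ethanol versus WT ethanol -0.50 to 0.15. The cause of these changes was not tested.

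Adh5 kept its sign for ethanol in WT mice (-1.90 to -0.76) and for KO saline (-1.93 to -0.79) in all 9 settings other than leaving out a library. Over all genes, calls for ethanol in WT mice ranged from 1417 to 5582 around 2704, in KO mice from 48 to 1141 around 465, for KO saline from 1596 to 5863 around 2890, for KO ethanol versus WT ethanol from 264 to 950 around 477, for Treatment from 376 to 4581 around 1045, for Genotype from 504 to 5115 around 1130 and for the interaction from 1422 to 3538 around 2237. Without TMM, 89.4% of the calls for ethanol in WT mice were higher, against 54.4%. Depth limits Adh7 and Cyp2e1, and in the library labelled KO ethanol 1, where 3 counts are 5.01 CPM, Adh1, Aldh1a3 and Slc16a7 as well. No paired analysis was possible because the groups share no replicate numbers in the labels.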

Other observations

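Enzymes and carriers that move reducing equivalents from cytosolic NADH into mitochondria, a step that ethanol oxidation loads, were also examined. The list also held Ldha and Ldhb, which encode lactate dehydrogenase and are not part of such a shuttle. All 10 listed genes were tested, and at an unadjusted p under 0.05 edgeR called none for ethanol in either genotype, for KO saline versus WT saline or for either main effect. DESeq2 called 3 for ethanol in WT mice (Ldha, Mdh1 and Mdh2), beside 21.4% of all genes, and 4 for KO saline versus WT saline (the same 3 and Got2), beside 22.8%. limma on log2 of RPKM + 1 called 0 in both. By edgeR their median change with ethanol was -0.53 in WT mice, beside 0.06 over all genes, and 0.25 in KO mice, beside 0.01. On log2 of RPKM + 1 the median in WT mice was 0.02. Mdh1 (371 RPKM on average), Ldha (356 RPKM) and Mdh2 (290 RPKM) were the most abundant, all above Adh5 at 78.6 RPKM.

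Of 6 listed genes whose enzymes form other ethanol products, 3 were tested (Pld1, Pld2 and Sult1a1), and edgeR called none in any of the 7 contrasts. DESeq2 called Sult1a1 for KO saline versus WT saline, beside 22.8% of all genes, and for Genotype, beside 9.53%. Sult1a1 was at 0, 21.5 and 2.60 CPM in WT saline and 1.75, 1.41 and 2.51 CPM in KO saline. The high value was that of WT saline 2, with 117 counts. Pld2, a phospholipase D that can form phosphatidylethanol, averaged 8.55 RPKM and Sult1a1 averaged 2.94 RPKM.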
